A study of Mus musculus with 24 samples.

Results

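The genes described here are 10 transcription factor genes of the mammalian circadian clock: the activators Bmal1 (written Arntl on the array), Clock, Npas2 and Rora, and the output factors Dbp, Tef, Hlf, Nfil3, Bhlhe40 and Bhlhe41. They were chosen by name. All 10 were among the 18193 genes that had a probe set with a single gene symbol, and 28 of the 34945 such probe sets belonged to them. Rora had 9 probe sets, Clock 4, Tef 3, Nfil3 and Bhlhe40 1 each, and the other genes 2 each. RNA was measured on Affymetrix Mouse 430 2.0 arrays in the pineal gland and the retina of male and female C57BL/6J mice, aged 2 months and kept in 12 h of light and 12 h of dark. All mice carried floxed Neurod1 alleles: control mice lacked Cre, and conditional knockout (cKO) mice carried a Crx-Cre transgene, which removes Neurod1 where the photoreceptor and pineal promoter of Crx is active. No mice with Cre and without the floxed allele were analysed here, so effects of Cre and of Neurod1 loss cannot be told apart. Tissue was taken at Zeitgeber time 6 (ZT6, mid-day) or at ZT20 (night, under dim red light). There were 8 groups of 3 pools, each pool made from 6 glands or 6 retinas and run on 1 array, which gave 24 arrays. The question for these genes is whether night and day differed in each tissue and genotype.

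The circadian clock is a feedback loop of transcription. BMAL1 pairs with CLOCK, or with its relative NPAS2, and the pair binds E-box sequences and turns on Per and Cry genes, whose proteins repress the pair. RORA turns on Bmal1 through ROR elements that the repressors NR1D1 and NR1D2 also bind. DBP, TEF and HLF form the PAR bZIP family and activate genes through D-box sequences, where NFIL3 acts as a repressor. BHLHE40 and BHLHE41 (DEC1 and DEC2) compete at E-boxes and repress. In rodents the pineal gland takes its night signal from nerves that the central clock drives, and the retina holds a clock of its own in several of its neuron classes.

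Neurod1 itself checked the genotype labels. Its signal was 3156 to 5268 in the 6 control pineal pools, and 83.5, 29.1 and 30.9 in the cKO pineal pools at ZT6. At ZT20 the cKO pineal pools gave 22.5, 1897 and 960, and the cKO retina pools gave 369, 3595 and 3582, against 6698 to 7617 in control retinas at that time. Pools 2 and 3 of the cKO at ZT20 thus held clear Neurod1 signal in both tissues, and values without them are given where they differ by much. The cKO night group is then 1 pool, whose spread the fit takes from the other groups, so these values are printed without a p. Array medians were 107.1 to 158.8 for pineal arrays and 107.8 to 183.1 for retina arrays, so the arrays had no common median. Each test is therefore given for the signals as deposited and, where it changes the call, after quantile normalisation. A gene is said to rise or fall where limma gave an adjusted p under 0.05 over all genes tested in that tissue. Changes are in log2(signal + 16) units, which understates changes of dim genes, and are followed by their standard error (SE). In whole tissue, fewer cells of a type and less RNA per cell cannot be told apart.

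Each gene was represented by its brightest probe set, and all 10 of these passed the filter on dim genes in the fits with all pools, as did 21 of the 28 probe sets. Bhlhe41 in the pineal gland lay above the array median in 3 of 6 control pools and 0 of 6 cKO pools. It passed there only through the control pools, and in some fits that leave out a pool it did not pass. The representative probe sets of all genes but Bhlhe41 lay above the array median on every array of both tissues. Signals of different probe sets depend on their sequence, so only the same probe set is compared between groups.

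**Figure D1:**
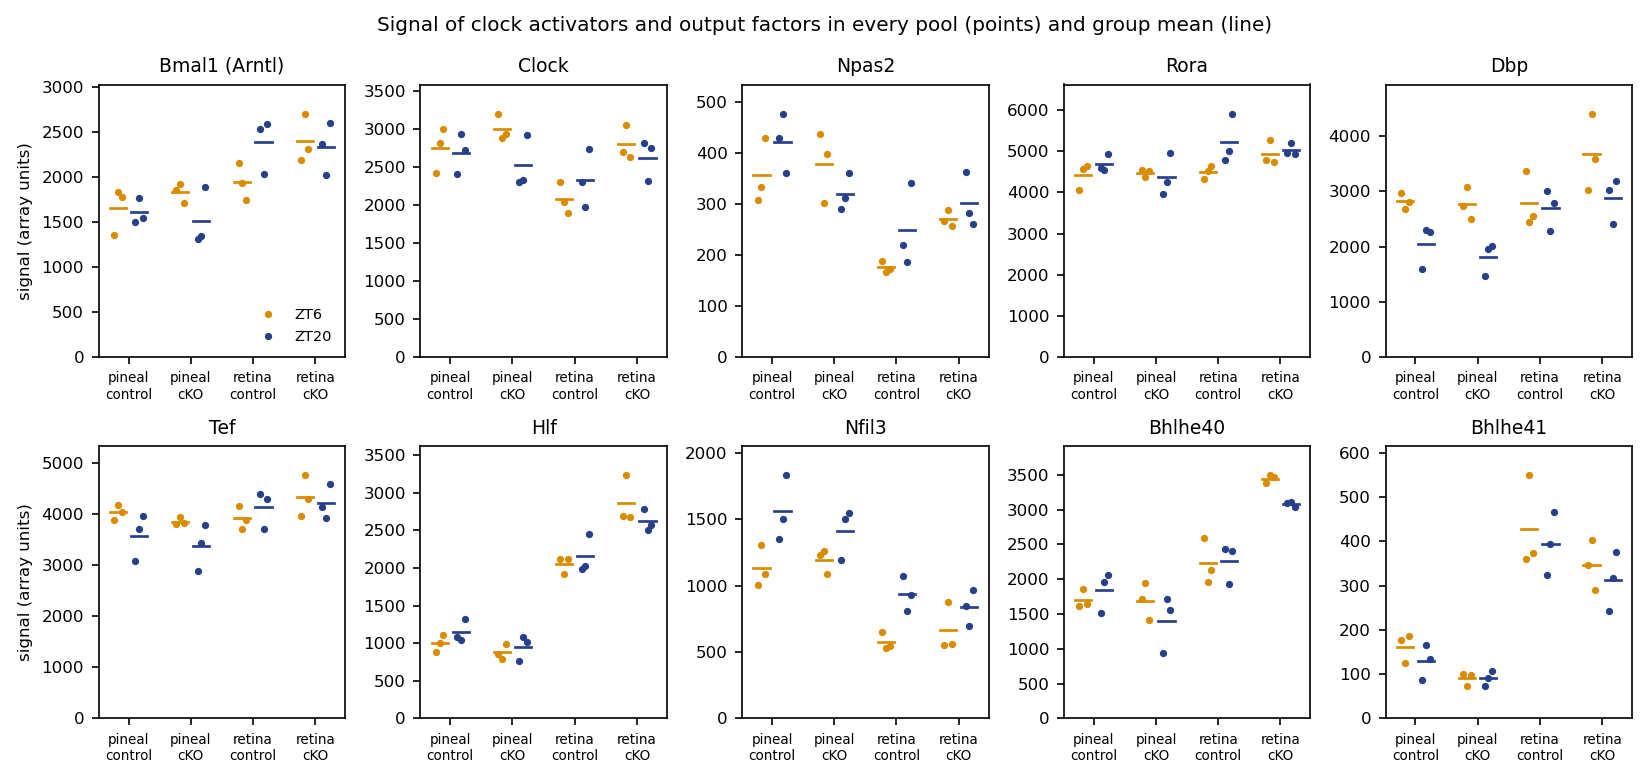
Signal of the representative probe set of each gene (y axis, linear array units from 0) in every pool (points) and as the group mean (line), at ZT6 (orange) and ZT20 (blue), for control and cKO pineal gland and retina. Dbp lay lower at ZT20 than at ZT6 in both pineal genotypes without overlap of pools, and Nfil3 lay higher at ZT20 in both control tissues without overlap.

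In the pineal gland, Dbp fell at night in both genotypes, and it was the only 1 of the 10 genes to pass the test on the deposited signals. In control glands 8.54% of 11936 genes passed (62.1% of them higher at night, and 47.9% after quantile normalisation). In cKO glands 11.5% passed (25.9% of them higher, and 46.9% after quantile normalisation). A count of 1 in 10 is close to those backgrounds. After quantile normalisation the backgrounds were 26% and 18.2%, and 3 of the 10 genes passed in control glands (Dbp and Tef lower, Nfil3 higher) and 2 in cKO glands (Dbp lower, Nfil3 higher). After median centring 2 passed in control and 1 in cKO glands, against 15.4% and 13.8%. The median change of all genes in cKO glands was -0.15 on the deposited signals and -0.03 after quantile normalisation, so changes below 0 there are in part shared by the whole array. The pools did not overlap for 2 of the 10 genes in control glands and 2 in cKO glands, against 25.6% and 23.4% of all genes tested.

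Dbp encodes the D-box binding activator whose gene is a direct E-box target of the clock. In control pineal glands its signal was 2972, 2687 and 2809 at ZT6 and 1595, 2305 and 2259 at ZT20. In cKO pineal glands it was 2745, 3086 and 2504 at ZT6 and 1465, 1965 and 2013 at ZT20. All pools at night lay below all pools by day in each genotype, and the mean night signal was 0.727 of the day signal in control glands and 0.653 in cKO glands. The log2 change was -0.47 ± 0.16 (SE, n = 3 pools per group) in control glands (limma adjusted p = 0.0396) and -0.62 ± 0.16 in cKO glands (limma adjusted p = 0.00308). After quantile normalisation both changes were nearly alike, at -0.53 (adjusted p = 0.00318) and -0.48 (adjusted p = 0.0078). The control call on the deposited signals was lost without ZT6 pool 1 (adjusted p = 0.159), pool 2 (0.0711) or pool 3 (0.103), and without ZT20 pool 1 the change was -0.30 (adjusted p = 0.317). The cKO call was lost without ZT6 pool 2 (adjusted p = 0.0508) or ZT20 pool 1 (0.0543). After quantile normalisation it passed in all 6 fits that leave out 1 pool in each genotype. Without the cKO ZT20 pools that held Neurod1 signal, the value was -0.91, from 1 night pool.

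The other Dbp probe set, 1418174_at, gave the same direction. Its signal in control glands was 1879, 1872 and 1691 at ZT6 and 756, 1251 and 1208 at ZT20, again without overlap. Its change was -0.78 ± 0.19 in control and -0.82 ± 0.19 in cKO glands, with limma adjusted p of 0.00488 and 0.00253 in a fit of all probe sets, where 8.07% and 10.3% passed (23.3% and 17.1% after quantile normalisation).

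Several cell type lists moved with the same comparison in the pineal gland, and their part in the Dbp change was not tested. The summed signal of 8 rod markers on the array (of 10) was 22284 to 27626 at ZT6 and 19379 to 21556 at ZT20 in control glands, and 23748 to 25608 and 18560 to 22171 in cKO glands. Sag stands in both the rod and the pinealocyte list, so the rod sum is not particular to rods. Its mean was 10389 by day and 8852 by night in control glands, while Rom1, also in the rod list, gave 7385 and 7786. The 7 cone markers on the array (of 8) summed to 22643 to 24883 at ZT6 and 20180 to 22220 at ZT20 in control glands, and to 22671 to 24656 and 20228 to 21799 in cKO glands. The 5 neutrophil and marrow markers summed to 6096 to 11664 at ZT6 and 1773 to 6516 at ZT20 in control glands, and to 2501 to 2955 and 2986 to 7590 in cKO glands. The 5 endothelial markers summed to 2754 to 3687 at ZT6 and 3812 to 4664 at ZT20 in control glands, and to 3202 to 3884 and 2672 to 3505 in cKO glands. No marker of these lists was at 0, and the pinealocyte list (9 of 10 on the array) gave 56486 to 63939 over the 12 pineal pools. Genes of that list moved both ways in control glands, so its steady sum does not show a steady pinealocyte content. Mean Aanat signal was 567 by day and 4622 by night there, and mean Gngt1 signal 3862 and 2330. The Actb 3′ to 5′ control ratio, in log2 units, was 1.08 to 1.29 at ZT6 and 1.34 to 1.502 at ZT20 in cKO glands, and 1.07 to 1.31 in control glands. The Gapdh ratio was 0.39 to 0.51 at ZT6 and 0.36 to 0.37 at ZT20 in control glands, without overlap. In cKO glands the 6 bipolar cell markers on the array (of 8) summed to 4517 to 5002 at ZT6 and 3005 to 4274 at ZT20.

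Tef, the PAR bZIP relative of Dbp, gave different answers by probe set. The representative set read 3878, 4163 and 4037 at ZT6 and 3072, 3696 and 3949 at ZT20 in control glands, with overlap, and 3796, 3930 and 3811 against 2885, 3420 and 3787 in cKO glands, without overlap. Its changes of -0.18 ± 0.13 and -0.20 ± 0.13 did not pass (limma adjusted p = 0.452 and 0.312). After quantile normalisation they were -0.22 (adjusted p = 0.0165, passed in 4 of 6 fits that leave out 1 pool) and -0.09 (0.357). Probe set 1438033_at fell in control glands, from 1891, 1674 and 1563 at ZT6 to 931, 979 and 872 at ZT20. That is a change of -0.87 ± 0.18 (limma adjusted p = 0.000584 over all probe sets; 0.00025 after quantile normalisation) and a night signal of 0.542 of the day signal. In cKO glands it read 1182, 1187 and 1065 by day and 715, 716 and 1037 by night, without overlap, at -0.49 ± 0.18 (limma adjusted p = 0.0688). Both Tef sets lay lower at night in both genotypes, and they differed in the size of the change. The representative set gave -0.41 without the cKO ZT20 pools 2 and 3, from 1 night pool. Across the 8 group means, each centred on its tissue, the representative sets of Dbp and Tef correlated at r = 0.914, as a description over groups that share arrays and scale.

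Hlf, the third PAR bZIP gene, gave no call between night and day. Its representative set gave 883 to 1103 by day and 1044 to 1328 by night in control glands, with overlapping pools, and a change of 0.21 ± 0.19 (limma adjusted p = 0.588). In cKO glands the change was 0.10 ± 0.19 (limma adjusted p = 0.766), and the other Hlf set gave 0.29 ± 0.19 and 0.13 ± 0.19, neither past the threshold. Without the cKO ZT20 pools 2 and 3 the cKO value of the representative set was -0.20, below 0. The pools of the other Hlf set did not overlap in control glands, where those of 25.6% of all genes tested did not either.

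Nfil3, the bZIP repressor that opposes the PAR bZIP factors at D-boxes, leaned the other way. Its only probe set read 1005, 1307 and 1084 at ZT6 and 1353, 1503 and 1831 at ZT20 in control pineal glands, without overlap. In cKO glands it read 1232, 1263 and 1089 by day and 1193, 1504 and 1547 by night, with the lowest night pool inside the day range. The changes of 0.46 ± 0.18 and 0.23 ± 0.18 did not pass on the deposited signals (limma adjusted p = 0.101 and 0.428). They passed after quantile normalisation, at 0.42 (adjusted p = 0.00609, in all 6 fits that leave out 1 pool) and 0.38 (0.0155, in 4 of 6). Without the cKO ZT20 pools 2 and 3 the cKO change on the deposited signals was 0.00, from 1 night pool. Its array median of 107.1 was the lowest of the pineal arrays. The part of Neurod1 signal and that of this single array cannot be told apart.

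With both genotypes averaged, an alternative added after the data were seen, 2 of the 10 genes passed in the pineal gland, against 19.5% of all genes. Dbp fell by 0.55 ± 0.11 (limma adjusted p = 5.27e-05) and Nfil3 rose by 0.35 ± 0.13 (limma adjusted p = 0.0414). After quantile normalisation Tef passed as well, at -0.15 (adjusted p = 0.0124), with 36.2% of all genes past the threshold.

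**Figure D2:**
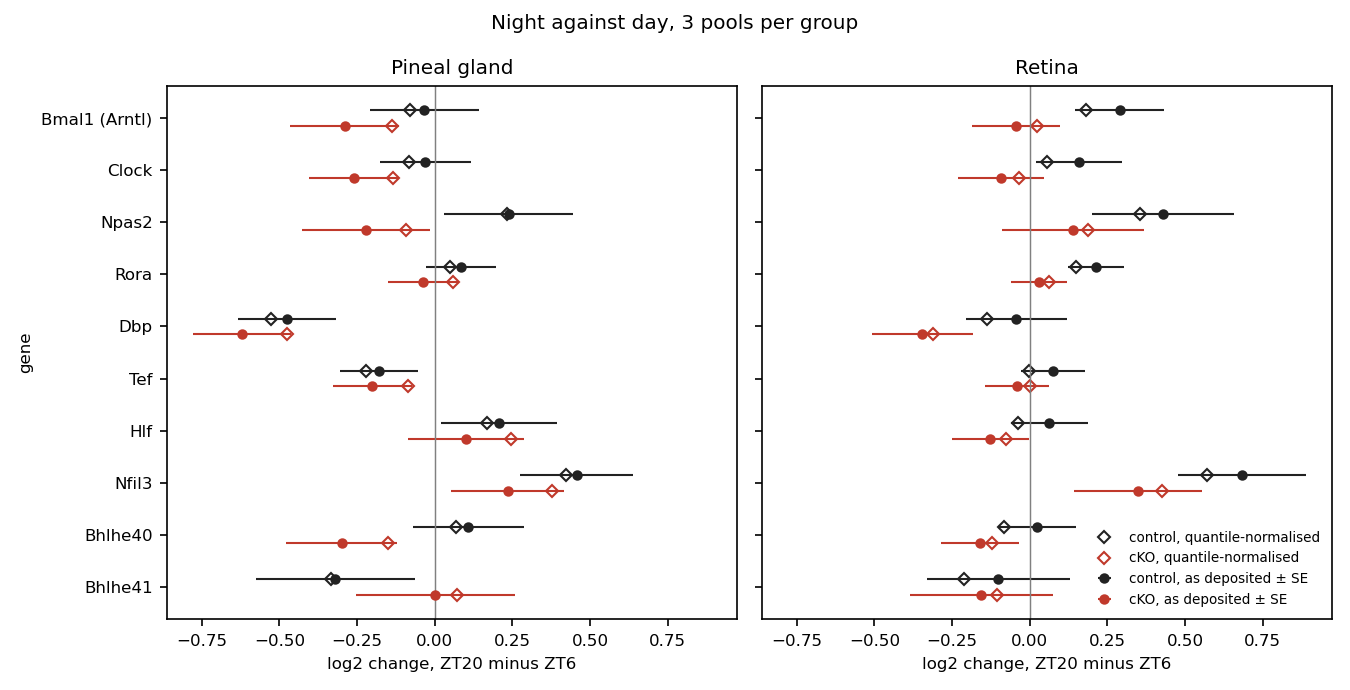
Night against day change of each gene (x axis, log2 units, ZT20 minus ZT6) in control (black) and cKO (red) pineal gland (left) and retina (right). Filled points with bars are the deposited signals with their SE (n = 3 pools per group) and open diamonds the quantile-normalised values; in the pineal gland Dbp lay at -0.47 in control and -0.62 in cKO glands on the deposited signals, and Nfil3 lay above 0 in all 4 tissue and genotype combinations.

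The upstream sequences of 3 output factors are shown, those that passed in the pineal gland under at least 1 scaling, because DBP, TEF and NFIL3 are placed downstream of E-box and ROR element control in the textbook loop. RefSeq (GRCm38.p6) gave 13 windows, from 250 bases before to 50 bases after a transcript start, for 9 of the 10 genes, and none was matched for Bhlhe40. The windows were searched on both strands for the E-box CACGTG, the D-box TTATGTAA or TTACGTAA, the ROR element TAGGTCA or TGGGTCA and the cAMP response element TGACGTCA. Of all 32851 windows, 7.15% held the E-box, 1.06% the D-box, 6.45% the ROR element and 1.79% the cAMP response element. Only the 250 upstream bases are printed, 5′ to 3′ on the strand of the gene, with matches in capitals. Dbp lies on chromosome 7 (45705100 to 45710203), and its window, chr7:45704997-45705246 on the plus strand, held none of these letters. Tef lies on chromosome 15 (81802673 to 81826863) and had 2 windows, each with an E-box, of which chr15:81811164-81811413 on the plus strand is shown with CACGTG at position -138. Nfil3 lies on chromosome 13 (52967209 to 52982878), and its window, chr13:52981040-52981289 on the minus strand, held a ROR element on the opposite strand, read as TGACCTA, at position -12.
Dbp: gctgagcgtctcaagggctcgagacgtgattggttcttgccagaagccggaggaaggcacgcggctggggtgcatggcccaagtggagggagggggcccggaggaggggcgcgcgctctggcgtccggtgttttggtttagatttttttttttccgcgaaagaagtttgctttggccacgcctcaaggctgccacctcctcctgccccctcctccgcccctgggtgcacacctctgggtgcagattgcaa
Tef: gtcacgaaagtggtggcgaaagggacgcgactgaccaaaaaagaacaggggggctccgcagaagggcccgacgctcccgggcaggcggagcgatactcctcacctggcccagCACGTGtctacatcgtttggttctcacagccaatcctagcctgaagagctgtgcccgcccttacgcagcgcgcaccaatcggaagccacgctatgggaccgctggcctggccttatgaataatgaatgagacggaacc
Nfil3: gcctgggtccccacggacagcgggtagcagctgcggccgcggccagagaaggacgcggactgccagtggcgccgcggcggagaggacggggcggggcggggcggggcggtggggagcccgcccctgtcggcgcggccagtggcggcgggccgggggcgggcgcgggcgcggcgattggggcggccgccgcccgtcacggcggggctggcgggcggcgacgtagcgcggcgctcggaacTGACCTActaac
Elsewhere among the 13 windows, Bhlhe41 held an E-box at -153, Hlf a cAMP response element at -9 and 1 of the 2 Bmal1 windows a ROR element at 31 bases into the transcript. No match overlapped another, and the windows of Clock, Npas2 and Rora held none of these letters. A match is a description of letters and not of a bound site.

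With all pools, the representative sets of the 4 activators gave no call between night and day in the pineal gland. Bmal1 gave 1354, 1831 and 1782 at ZT6 and 1505, 1772 and 1545 at ZT20 in control glands, a change of -0.03 ± 0.17 (limma adjusted p = 0.942). In cKO glands it gave 1853, 1929 and 1716 by day and 1310, 1343 and 1895 by night, with 1 night pool inside the day range, at -0.29 ± 0.17 (limma adjusted p = 0.287). Clock gave -0.03 ± 0.15 and -0.26 ± 0.15, with overlapping pools in both genotypes. The cKO values of both genes moved toward 0 after quantile normalisation, to -0.14 and -0.13, and away from 0 without the cKO ZT20 pools 2 and 3, to -0.48 and -0.38. Without cKO ZT20 pool 3 both passed on the deposited signals, at -0.46 (limma adjusted p = 0.032) for Bmal1 and -0.37 (0.0361) for Clock; neither passed after quantile normalisation in any of the 6 fits that leave out 1 pool. Npas2, the Clock relative, read 308 to 429 by day and 361 to 477 by night in control glands. It gave 0.24 ± 0.21 in control and -0.22 ± 0.21 in cKO glands. Rora gave 0.09 ± 0.11 and -0.04 ± 0.11 by its representative set.

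The repressors Bhlhe40 and Bhlhe41 also gave no call on the full set of pools. Bhlhe40 read 1609, 1854 and 1641 by day and 1514, 1965 and 2064 by night in control glands, at 0.11 ± 0.18. In cKO glands it read 1712, 1944 and 1416 by day and 942, 1714 and 1552 by night, at -0.30 ± 0.18 (limma adjusted p = 0.281), with night pool 1 alone below the day range. Without the cKO ZT20 pools 2 and 3, only that low pool remained, and the value was -0.82. Bhlhe41 was dim, at 73.5 to 185 over all pineal pools against array medians of 107.1 to 158.8. Its changes of -0.32 ± 0.26 and 0.00 ± 0.26 are thus near the level where the array resolves little.

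The 21 probe sets that passed the filter were set side by side within each gene. In control glands 3 of the 21 fell (both Dbp sets and Tef 1438033_at), and in cKO glands 3 fell (both Dbp sets and Rora 1436325_at), against 8.07% and 10.3% of all probe sets. Rora 1436325_at read 4016, 3788 and 4015 by day and 2853, 2720 and 3332 by night in cKO glands, without overlap, at -0.41 ± 0.13 (limma adjusted p = 0.0268; -0.30 and 0.0173 after quantile normalisation). The 5 other Rora sets gave -0.27 to -0.04 there, and none passed. Clock 1439314_at gave -0.52 ± 0.22 in control glands (limma adjusted p = 0.137), beside -0.03, 0.26 and 0.06 for the other Clock sets. Its control pools did not overlap, nor did those of Clock 1418660_at, Rora 1420583_a_at and Rora 1424034_at, which lay higher at night, and none of these 4 sets passed. By representative sets, pools did not overlap for 25.6% of all genes tested in control and 23.4% in cKO glands. The share over all probe sets was not counted. The files do not say which transcript each set reads.

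**Figure D3:**
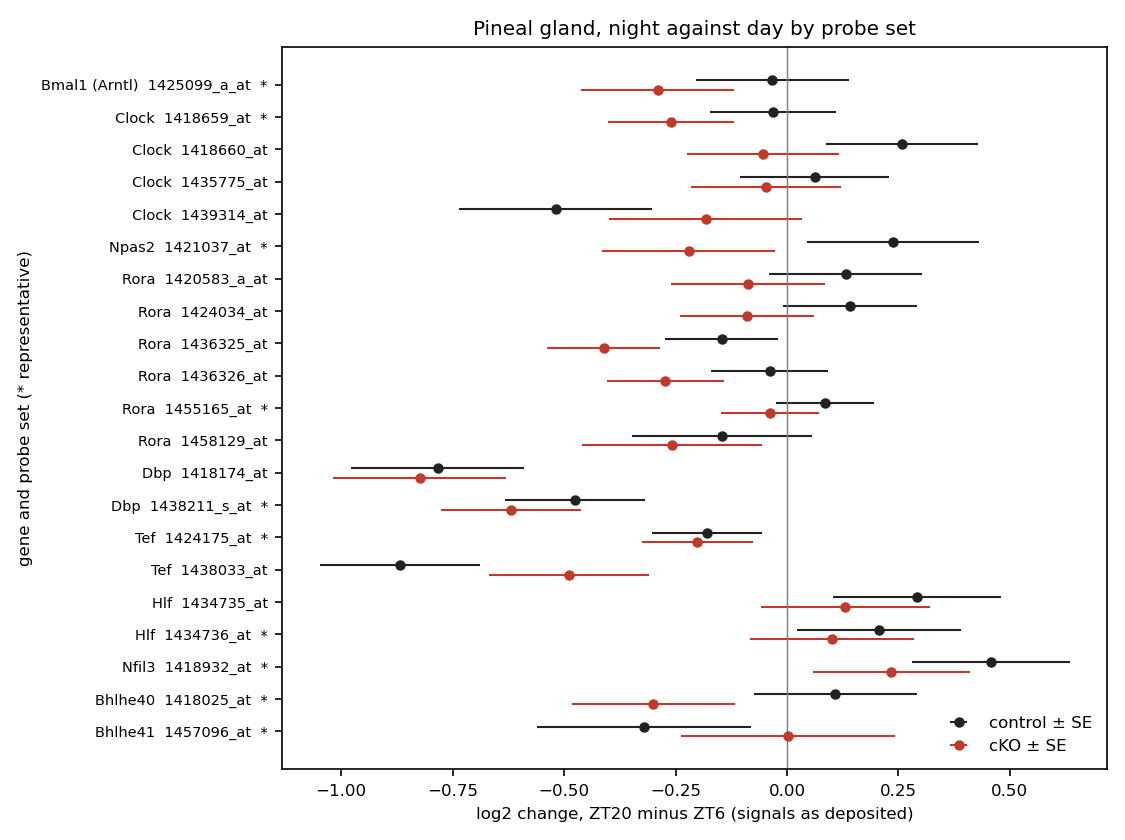
Night against day change (x axis, log2 units, signals as deposited) of every probe set that passed the filter (y axis, with the representative set of each gene marked by an asterisk) in control (black) and cKO (red) pineal glands, with SE bars (n = 3 pools per group). Both Dbp sets, Tef 1438033_at and Clock 1439314_at (-0.52) lay furthest below 0 in control glands, from -0.87 to -0.47, whereas the Hlf sets and Nfil3 lay above 0.

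In the retina none of the 10 genes passed between night and day in either genotype on the deposited signals, where few genes did at all: 0.137% of 11693 genes in control retinas and 0.0513% in cKO retinas. At an unadjusted p under 0.05, the control retina gave 2 of the 10 genes (Nfil3 and Rora) and the cKO retina 1 (Dbp). Nfil3 had the largest change. Its signal was 652, 527 and 546 at ZT6 and 1074, 806 and 929 at ZT20 in control retinas, all night pools above all day pools, with a mean night signal of 1.63 times the day signal. The change of 0.68 ± 0.21 did not pass on the deposited signals (limma adjusted p = 0.214) and passed after quantile normalisation at 0.57 (adjusted p = 0.0322), where 1.25% of genes did, and after median centring, where 0.795% did. That call held in 1 of 6 fits that leave out 1 pool. In cKO retinas Nfil3 read 549, 878 and 562 by day and 847, 694 and 966 by night, with overlap, at 0.35 ± 0.21 (limma adjusted p = 1; 0.42 and 0.199 after quantile normalisation). Averaged over both genotypes it gave 0.52 ± 0.15 (limma adjusted p = 0.189, with 0.419% of all genes past the threshold) and passed after quantile normalisation at 0.50 (0.00693), against 2.37% of all genes. In control retinas the 5 endothelial markers summed to 1793 to 2255 at ZT6 and 2327 to 2713 at ZT20, and the Actb 3′ to 5′ log2 ratio was 1.23 to 1.51 and 1.48 to 1.80. In the same pools the 4 astrocyte and oligodendrocyte markers on the array (of 5) summed to 929 to 1012 and 1193 to 1606, and the 7 choroid plexus markers to 10070 to 11015 and 11197 to 14709. The part of these lists in the Nfil3 difference was not tested.

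Dbp showed no such separation in the retina. It read 3375, 2444 and 2552 by day and 3011, 2287 and 2793 by night in control retinas, at -0.04 ± 0.16 (limma adjusted p = 0.95). In cKO retinas it read 3029, 4412 and 3589 by day and 3029, 2410 and 3192 by night, at -0.35 ± 0.16 (limma adjusted p = 1), with overlapping pools. The other Dbp set, 1418174_at, also overlapped but lay lower at night, at 0.828 of the day signal in control and 0.712 in cKO retinas. Averaged over both genotypes that set gave -0.37 ± 0.15 (limma adjusted p = 0.546), and -0.39 after quantile normalisation (0.0871). Bmal1 leaned upward in control retinas, with 2161, 1936 and 1745 by day and 2534, 2033 and 2598 by night, at 0.29 ± 0.14 (limma adjusted p = 0.462; 0.18 and 0.267 after quantile normalisation). Rora separated in control retinas, with 4320, 4518 and 4655 by day and 4783, 5001 and 5917 by night, at 0.21 ± 0.09 (limma adjusted p = 0.378; 0.15 and 0.397 after quantile normalisation). Its night signal was 1.164 of the day signal. Rora 1420583_a_at (1.355), 1424034_at (1.271) and 1436325_at (1.209) and the other Hlf set (1.213) also separated there, and the remaining Rora sets overlapped. In control retinas 0 of the 21 probe sets passed, against 0.147% of all probe sets. The share of all probe sets without overlap was not counted there. Sets of the same gene were read on the same arrays, so they do not count as repeats of each other. Bhlhe40 separated in cKO retinas, with 3376, 3493 and 3467 by day and 3097, 3113 and 3030 by night, at -0.16 ± 0.13 (limma adjusted p = 1). By representative sets, pools without overlap were seen for 2 of the 10 genes in control and 1 in cKO retinas, against 15.7% and 8.17% of all genes. The remaining genes gave -0.16 to 0.43 in control and cKO retinas, and none passed after quantile normalisation either. In cKO retinas 0 of the 10 genes passed after quantile normalisation or median centring, against 0.325% and 0.222% of all genes. The cKO value of Npas2 was 0.14 with all pools and 0.41 without the cKO ZT20 pools 2 and 3, and that of Bhlhe41 was -0.16 and -0.48.

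The difference between genotypes in the night change was tested directly. None of the 10 genes passed in the pineal gland (0.36% of all genes did) or in the retina (0% of 11693). After quantile normalisation none passed in either tissue. For Dbp the cKO change minus the control change was -0.14 ± 0.22 in the pineal gland (limma adjusted p = 0.866) and -0.30 ± 0.23 in the retina (0.805). For Nfil3 it was -0.22 ± 0.26 and -0.34 ± 0.29 (limma adjusted p = 0.836 and 0.819). These SEs are as wide as the night changes of most of the genes, so a modest genotype effect on the night change was not detectable here. Without the cKO ZT20 pools 2 and 3 the pineal difference was -0.44 for Dbp, -0.46 for Nfil3 and -0.93 for Bhlhe40, and it ran from -0.93 to 0.08 over the 10 genes. At an unadjusted p under 0.05, the full set of pools gave 0 of the 10 genes in the pineal gland and 0 in the retina.

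With the lone night pool assumed to vary like the other groups, limma calls in the fits without these pools can be counted. In cKO pineal glands 3 of the 10 genes passed between night and day, against 25% of all genes, and 1 passed for the genotype difference of the night change, against 2.74%. For pineal level between genotypes 2 passed, against 4.95%, and for retina level 3, against 25.4%. In the retina 0 passed between night and day (0.0602% of all genes) and 0 for the genotype difference (0.086%).

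The difference between tissues in the night change of control mice was tested in the same way, and 0 of the 10 genes passed (1.06% of 12881 genes did, and 0 of 10 against 4.42% after quantile normalisation), with 0 at an unadjusted p under 0.05. For Dbp the retina change minus the pineal change was 0.43 ± 0.23 (limma adjusted p = 0.649; 0.38 and 0.219 after quantile normalisation). The night decrease of Dbp that passed in the pineal gland and not in the retina is therefore not shown to differ between the tissues.

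The rest of the loop is given for context. Of 8 clock repressors, 7 passed between night and day in control pineal glands, against 8.54% of all genes. The day-phase repressor Nr1d1 fell by 1.46 ± 0.19 and the CLOCK-BMAL1 inhibitor Ciart fell by 1.07 ± 0.26, while Cry1 rose by 1.43 ± 0.18 and Per1 by 0.75 ± 0.20 (limma adjusted p from 6.78e-11 to 0.00603 over these 4). In cKO glands 5 of 8 passed (3 higher, 2 lower), against 11.5% of all genes, with Nr1d1 at -2.06 ± 0.19 and Cry1 at 1.29 ± 0.18. In the retina 0 of 8 passed in either genotype, where only 0.137% of all genes passed in control and 0.0513% in cKO retinas. Ciart, at -1.11 ± 0.23 in control and -1.06 ± 0.23 in cKO retinas, passed in both after quantile normalisation (adjusted p = 0.00283 and 0.00877). There 1.25% and 0.325% of all genes passed. Of the other ROR genes, Rorb was tested, and it gave 0.67 ± 0.14 in control retinas (limma adjusted p = 0.0701; 0.58 and 0.0162 after quantile normalisation). None of 12 tested regulators of clock protein stability or chromatin (13 of 16 were on the array) passed in any night comparison on the deposited signals. After quantile normalisation 1 of them passed in the pineal gland, Csnk1d, which encodes a kinase of PER proteins and is named after its values were seen, at 0.35 in control (adjusted p = 0.000895) and 0.18 in cKO glands (0.0461). Of all genes, 26% and 18.2% passed there. Of 9 tested clock output genes (14 of 15 on the array), Aanat, the night-peaking enzyme of melatonin synthesis, rose by 3.01 ± 0.18 in control and 2.74 ± 0.18 in cKO pineal glands. The cell cycle inhibitor Cdkn1a also rose in control glands (0.81 ± 0.19), and in cKO glands the zinc finger factors Klf9 (-0.32 ± 0.10) and Klf10 (-0.53 ± 0.14) fell.

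In the pineal gland the members' night differences were small beside those of the repressors. In cKO retinas they were also smaller, and in control retinas they were not. The median size of change, without its sign, was 0.19 over the 10 genes in control pineal glands and 0.70 over the 8 repressors, with 0.17 over all genes tested. In cKO glands these were 0.23, 0.94 and 0.21, in control retinas 0.13, 0.08 and 0.16, and in cKO retinas 0.13, 0.24 and 0.11.

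In level, averaged over both times, 0 of the 10 genes passed between cKO and control pineal glands, both on the deposited signals and after quantile normalisation, against 3.17% and 1.63% of all genes. Of the genes that passed, 10.3% were higher in cKO glands on the deposited signals, 29.7% after quantile normalisation and 96.7% after centring each array on its median. On the deposited signals 1 member, Bhlhe41, had an unadjusted limma p under 0.05. Its signal was 85.5 to 185 in control and 73.5 to 106 in cKO glands, at -0.57 ± 0.18 (limma adjusted p = 0.0552; -0.31 and 0.287 after quantile normalisation). All 6 cKO pools lay below their array medians, so the size of this difference is not resolved, and the gene entered the test only through control pools. It was called in 7 of the 21 settings in which it passed the filter, among them a fit of all probe sets, where 5.86% passed. Bhlhe40 gave -0.22, and -0.48 without the cKO ZT20 pools 2 and 3. Median centring shifted the median of all genes from -0.06 to 0.20, and Bmal1, Clock, Rora, Tef and Nfil3 were then higher in cKO glands, by 0.19 to 0.29, which is close to that shift, 5 of the 10 genes against 43.4% of all genes. For Rora, Tef and Nfil3 this reversed the direction on the deposited signals, and for Bmal1 and Clock it changed the call.

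In the retina Bhlhe40, Hlf and Clock were higher in cKO than in control pools on the deposited signals, 3 of the 10 genes, against 30.2% of all genes (92.3% of them higher, 53.2% after quantile normalisation and 37.9% after median centring). The median of all genes was shifted by 0.20 on the deposited signals, by 0.01 after quantile normalisation and by -0.06 after median centring. Bhlhe40 gave 1931 to 2590 in control and 3030 to 3493 in cKO retinas, without overlap, and rose by 0.55 ± 0.09 (limma adjusted p = 0.000265). The share of all genes without overlap was not counted for levels, so lack of overlap between genotypes is a description only. Bhlhe40 was then tested under the other scalings. It passed after quantile normalisation at 0.37 (adjusted p = 0.00117) and after median centring at 0.29 (0.0379), and in all 12 fits that leave out 1 pool. It was 0.55 without the cKO ZT20 pools that held Neurod1 signal, where Hlf gave 0.42 and Clock 0.35.

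Hlf gave 1920 to 2451 in control and 2504 to 3236 in cKO retinas, also without overlap, and rose by 0.38 ± 0.09 (limma adjusted p = 0.00434). After quantile normalisation it was 0.20 (adjusted p = 0.0265) and after median centring 0.12 (0.309), so its call depends on the scaling. Quantile normalisation and median centring each called 3 of the 10 genes here, against 25.5% and 24.9% of all genes. Clock rose by 0.30 ± 0.10 on the deposited signals (limma adjusted p = 0.0285) with overlapping pools, 1889 to 2731 in control and 2315 to 3056 in cKO retinas. That call was lost after quantile normalisation (0.12, adjusted p = 0.164) and in 7 of the 12 fits that leave out 1 pool, with adjusted p up to 0.0883: control ZT6 pools 2 and 3, control ZT20 pools 1 and 2, cKO ZT6 pool 2, and cKO ZT20 pools 1 and 3. Bhlhe41, the relative of Bhlhe40, lay the other way, at 325 to 550 in control and 243 to 404 in cKO retinas. Its change of -0.30 ± 0.16 did not pass on the deposited signals (limma adjusted p = 0.16) and passed after quantile normalisation at -0.57 (0.0128, in all 12 fits that leave out 1 pool) and after median centring at -0.56 (0.00864). Nfil3 gave 0.00 on the deposited signals (limma adjusted p = 0.984), -0.23 after quantile normalisation (0.0508) and -0.26 after median centring (0.0466). Npas2 gave 0.44 ± 0.16 on the deposited signals and came just short of the threshold (limma adjusted p = 0.0504). It passed in 2 of the 12 fits that leave out 1 pool. After quantile normalisation and after median centring it gave only 0.18 (limma adjusted p = 0.35 and 0.355). Over the 21 probe sets, 5 passed, all higher in cKO retinas, against 28.8% of all probe sets. Control and cKO means of Clock 1418660_at were 1590 and 2162 at ZT6, and 1809 and 1688 at ZT20. Those of Clock 1435775_at were 1624 and 2060, and 1892 and 1797. Those of Clock 1439314_at were 180 and 206, and 159 and 189. The other Hlf set gave 1581 and 2405, and 1918 and 2259.

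Markers of other cell types moved with genotype in the retina, and their part in these level differences was not tested. The 8 microglia and macrophage markers summed to 994 to 1503 in control and 2926 to 5885 in cKO retinas. The 8 Mueller glia and gliosis markers summed to 27800 to 37197 and 41830 to 52074. The 5 endothelial markers summed to 1793 to 2713 and 2871 to 4108. The 8 rod markers on the array summed to 62247 to 74790 and 58810 to 68617, with overlap, and no marker of these lists was at 0. The Actb 3′ to 5′ log2 ratio was 1.23 to 1.80 in control and 1.11 to 1.51 in cKO retinas.

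Between control tissues, averaged over both times, 7 of the 10 genes differed on the deposited signals, against 74.4% of 12881 genes (31.1% of them higher in retina, and 46.6% after quantile normalisation). The median of all genes lay at -0.28 on the deposited signals and -0.05 after quantile normalisation. Bhlhe41 and Hlf were higher in retina, at 1.42 ± 0.17 and 0.97 ± 0.11 (limma adjusted p = 7.86e-09 and 2.38e-09). Bhlhe41 read 325 to 550 in control retinas and 85.5 to 185 in control pineal glands, and Hlf read 1920 to 2451 and 883 to 1328, so the pools of the tissues did not overlap. The share of all genes without overlap between the tissues was not counted. The pineal signal of Bhlhe41 lay below the array median in 3 of 6 control pools, and the size of its difference is uncertain for that reason. Bmal1 (0.40 ± 0.11) and Bhlhe40 (0.33 ± 0.12) were also higher in retina, with limma adjusted p of 0.00176 and 0.0143. Without control pineal ZT20 pool 1 Bhlhe40 gave 0.27 (adjusted p = 0.0545).

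Npas2 and Nfil3 were higher in the pineal gland. Npas2 read 308 to 477 in control pineal glands and 167 to 341 in control retinas, at -0.85 ± 0.15 retina minus pineal gland (limma adjusted p = 6.03e-06), with 1 retina pool inside the pineal range. Nfil3 read 1005 to 1831 and 527 to 1074, at -0.84 ± 0.13 (limma adjusted p = 1.45e-06), with the highest retina pool inside the pineal range. Clock, at -0.30 ± 0.10 (limma adjusted p = 0.00512), lost its call after quantile normalisation (-0.06, adjusted p = 0.284). Rora, Dbp and Tef did not pass on the deposited signals and were higher in retina by 0.29, 0.42 and 0.31 with quantile normalisation, whereas the mean of the Tef probe sets was lower in retina (-0.34, limma adjusted p = 0.0045). After quantile normalisation 9 of the 10 genes passed, against 79.8% of all genes, and after median centring 9, against 76.4%. Npas2 was lower in retina and called in all 25 settings (-0.97 to -0.63), and Clock was lower in all 25 (-0.36 to -0.06) and called in 21. Nearly all of these settings used the representative sets, and other Clock sets differed in direction. Means of Clock 1418660_at at ZT6 and ZT20 were 1396 and 1666 in control pineal glands, and 1590 and 1809 in control retinas. Those of Clock 1435775_at were 1614 and 1675, and 1624 and 1892. Those of Clock 1439314_at were 241 and 162, and 180 and 159.

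**Figure D4:**
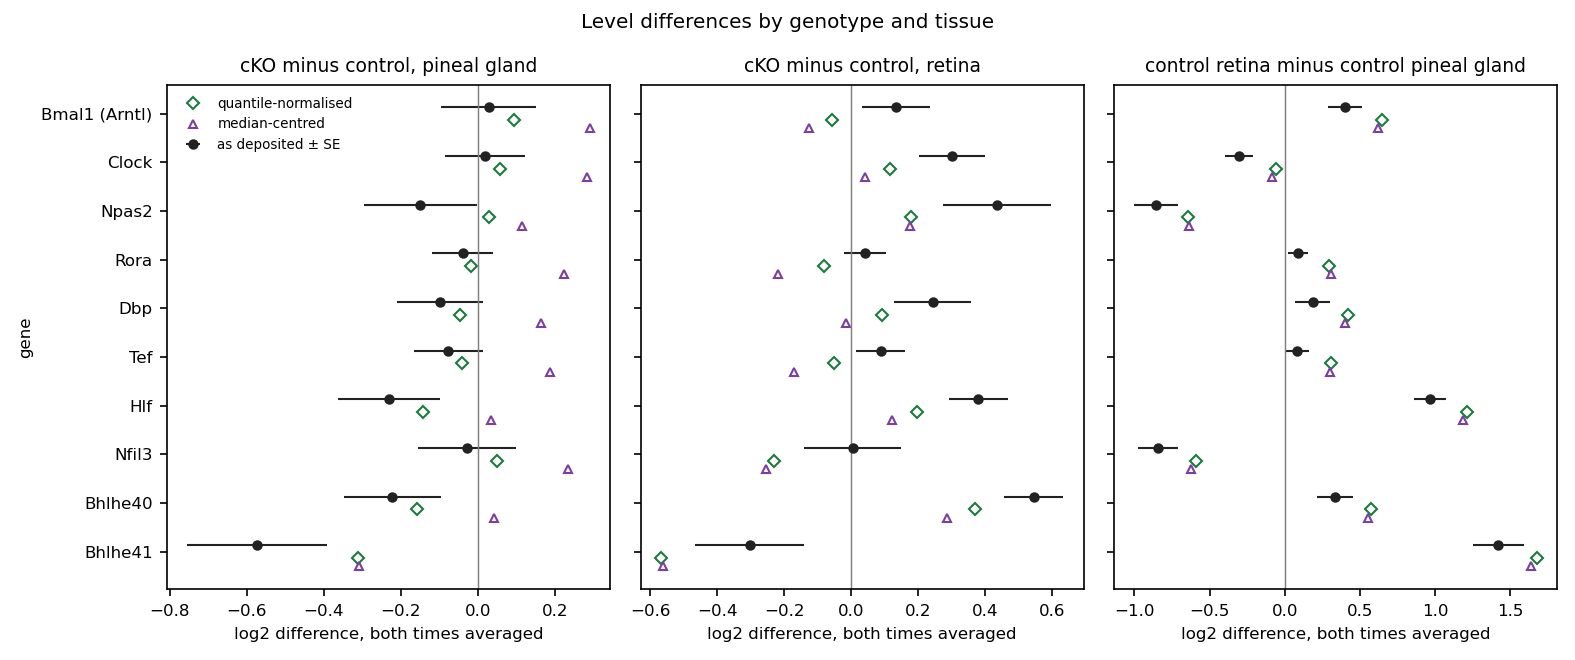
Differences in level averaged over both times (x axis, log2 units) for cKO minus control in the pineal gland (left) and retina (middle) and for control retina minus control pineal gland (right). Black points with SE bars are the deposited signals, green diamonds the quantile-normalised and purple triangles the median-centred values; Bhlhe40 in cKO retinas stayed above 0 under all 3 scalings (0.55, 0.37 and 0.29), whereas most genes in the left panel moved from near 0 to above 0 with median centring.

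Likeness was measured as Pearson's r over the 8 group means, each centred on its tissue, among 10763 genes. The genes most like Dbp were Flad1 (r = 0.994), Rxylt1 (0.993) and Atp8a2 (0.992), and of these Atp8a2, which encodes a phospholipid flippase, fell at night in cKO pineal glands (-1.17 ± 0.24, limma adjusted p = 0.000134) and gave -0.69 ± 0.24 in control glands (0.0558). The genes most like Bmal1 were Nosip (r = 0.992), Zbtb7a (0.990) and Ncbp3 (0.989), of which Zbtb7a, a zinc finger transcription factor gene, fell at night in cKO pineal glands (-0.56 ± 0.20, limma adjusted p = 0.0487). These genes were picked for likeness over the same night and day groups, so their night changes are not a separate test. With 8 means from arrays that share tissue and scale, such values are a description of pattern only.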

How the data were processed

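Microarray signals of 24 pools were analysed, 3 in each of 8 groups. The values are intensities per probe set on a linear scale, as the authors deposited them; per the submitters' processing notes GCOS was used, and neither a version nor a scaling target was found in them. Gene symbols came from the platform annotation: of 45101 probe sets, 34945 had 1 symbol, 932 several and 9160 none. Of a gene's probe sets, the brightest on average over the 24 arrays stood for it. Sets with names ending in _x_at were passed over unless a gene had no other. Sets ending in _s_at or _a_at, which stand for Dbp and Bmal1, were kept, and cross-hybridisation was not otherwise screened. Genes above the array median on at least 3 arrays of a fit were tested with limma 3.58.1 (R 4.3.3; group means, variance trend) on log2(signal + 16), per tissue or, for tissue comparisons, on all 24 arrays, with Benjamini-Hochberg adjustment over all genes tested and a threshold of 0.05. Alternatives were scaling, pseudocount, filter, probe set choice, model and left-out pools. The p-values rest on the spread between pools, which limma estimates in part from all genes. The number of arrays limits the precision. The weight of that shared estimate was 154.4 prior degrees of freedom in the pineal fit on deposited signals. It was 6.816 there after quantile normalisation, and 9.125 in the retina fit on deposited signals. Pineal SEs on deposited signals thus reflect a gene's own pools only in small part. An exact permutation test of 3 against 3 pools cannot go below p = 0.1. Members and lists were chosen with earlier results of these data known. All 10 genes are named, with up to 4 called genes of the largest change per pathway list and comparison, and the 3 genes most like Dbp and Bmal1.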

Additional observations from a re-analysis of the deposited data

How the results depend on the processing

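The counts of the 10 genes past the threshold depended mainly on scaling and on single pools. Between night and day in control pineal glands, 1 gene passed, against 8.54% of all genes. After median centring 2 passed (15.4% of all genes), after quantile normalisation 3 (26%) and averaged over both genotypes 2 (19.5%). Trimmed-mean scaling gave 3, and 0 passed with no filter, with no variance trend or without ZT6 pool 3 of both genotypes. In cKO pineal glands 1 passed (11.5% of all genes), against 2 after quantile normalisation (18.2%) or trimmed-mean scaling. In control retinas 0 passed (0.137%), against 1 after median centring (0.795%), quantile normalisation (1.25%) or trimmed-mean scaling. For the genotype difference of the night change in the pineal gland, 0 passed (0.36% of all genes). For pineal level between genotypes 0 passed (3.17%), against 5 after median centring (43.4%). With all probe sets in the fit 1 passed there (5.86% of all probe sets), and with a pseudocount of 64 also 1. Counts without cKO ZT20 pools 2 and 3 are given above beside their shares. For trimmed-mean scaling, no filter, no variance trend, a pseudocount of 64, the replicate block and the other fits that leave out pools, shares of all genes are not given. Their counts are a description only. Leaving out 1 pool gave 0 to 1 in the control pineal night comparison, 0 to 3 in that of cKO glands, 0 to 1 for pineal genotype, 2 to 5 for retina genotype (5 without cKO ZT20 pool 2) and 6 to 7 between tissues. The direction reversed under median centring for Rora (0.22), Tef (0.19) and Nfil3 (0.235) between pineal genotypes and for Nfil3 (-0.26) between retina genotypes, and with the mean of probe sets for Tef between tissues (-0.34). Same-numbered pools correlated from -0.53 to 0.41 in their deviations. All 3 pairs were above 0.1 between the pineal genotypes at ZT6 (0.186, 0.349 and 0.322, each best with its own number), but not at ZT20 (lowest 0.0695) or between times, so pool numbers were not taken as pairing. With the replicate block, 2 genes passed in the control pineal night comparison, with Nfil3 added (limma adjusted p = 0.0396), and 1 for pineal genotype, Bhlhe41 (0.0405). Over all genes, the calls ranged from 626 to 3099 (1019 as reported) in the control pineal night comparison, 744 to 3226 (1373) in cKO glands, 4 to 146 (16) in control retinas, 1 to 38 (6) in cKO retinas, 0 to 325 (43) and 0 to 10 (0) for the genotype differences of the night change in pineal gland and retina, 124 to 5184 (378) and 2183 to 5872 (3535) for genotype level, 79 to 569 (137) for the tissue difference of the night change and 9227 to 16349 (9578) for tissue level. The cause was not tested for any of these. Dim signal limits Bhlhe41 in the pineal gland, where leaving out 1 pool kept it in 9 of 12 genotype fits and 3 of 6 control night fits.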
